A study of Homo sapiens with 8 samples.

Results

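Distal lost DAXX peaks on H3(Lys4) are sites away from promoters where DAXX was called in WT PC3 cells, where the same cells carried an H3(Lys4) region, and where no DAXX peak was called after DAXX knockdown. They were chosen from the WT DAXX peak list by 3 rules. The centre lay outside the window from 1000 bp upstream to 100 bp downstream of every protein-coding transcription start site (TSS), the peak shared no base with a knockdown DAXX peak, and it shared at least 1 bp with a WT H3(Lys4) region. Of 59761 WT DAXX peaks, 55549 were distal, 20322 of those lay on H3(Lys4), and 10916 of those were lost. These 10916 lost peaks on H3(Lys4) are 18.3% of all WT DAXX peaks and 53.7% of the distal peaks on H3(Lys4). Across all WT DAXX peaks, promoters included, 51.6% had no knockdown peak. The rule used this loss, so nothing is read from it.

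The data are ChIP-Seq peak lists from PC3, a line of human prostate cancer cells taken from a metastasis in bone. DAXX, DNMT1 and H3(Lys4) were each immunoprecipitated from PC3 cells with a stable lentiviral shRNA knockdown of DAXX (K/D), grown with puromycin, and from control PC3 cells (WT), once per antibody and line. By their labels the controls are wild type, but the methods of the study also allow for a non-specific shRNA line. Effects of the vector or of puromycin cannot be told apart from those of the knockdown. Whether the K/D line is 1 clone is not given in the sources used here. The histone antibody is labelled DMHH3(Lys4), a prefix that the labels do not explain, and is called H3(Lys4) below. All K/D lists were called against 1 K/D input library and all WT lists against 1 WT input library. With 1 library a group there is no test of K/D against WT, and every interval below covers counting error only.

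DAXX is a histone chaperone that, with ATRX, places the histone variant H3.3 into chromatin, and it also acts as a transcriptional co-repressor. DNMT1 is the methyltransferase that copies DNA methylation onto newly made strands. Methylation of histone H3 at lysine 4 marks promoters and enhancers, and distal sites that carry it usually hold an enhancer. DAXX is not known for binding a sequence of its own, and the motifs searched below are those of other factors, such as the AP-1 dimers of FOS and JUN proteins that are abundant at enhancers of invasive epithelial cells.

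The DAXX antibody enriched its peaks less in K/D cells. Peaks held 6.83% of tags in the K/D DAXX library and 15.8% in the WT DAXX library, and 15.1% in the K/D H3(Lys4) library and 23.9% in the WT H3(Lys4) library. Since each list passed limits on its tags and against its input, a lost peak is a peak that was not called. The tag threshold was 10 for both DAXX lists, 13 for K/D H3(Lys4) and 12 for WT H3(Lys4). The matched input filtered out 48.8% of putative K/D DAXX peaks and 34.3% of putative WT DAXX peaks. The lists give no peak height, so the place of a peak in the deposited order stands in for its strength (place 1 is the first of 59778 WT DAXX peaks). The lost peaks stood late in this order, with a median place of 40604.5, against 19498.5 for the 9406 distal peaks on H3(Lys4) that were kept. Comparisons of lost with kept peaks are therefore also given within 10 equal bins of the WT DAXX list, from first to last, and combined over these bins as a Mantel-Haenszel odds ratio.

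The following windows show the sequence at the first lost peaks that held the sites discussed below, 101 bp around the peak centre on the plus strand of hg19, outside exons of protein-coding genes. In the first set capitals mark the AP-1 site TGACTCA, read on either strand.
ZMIZ1, chr10:80733393-80733493: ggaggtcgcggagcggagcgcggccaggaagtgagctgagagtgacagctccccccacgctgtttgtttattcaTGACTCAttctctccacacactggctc
SEC24C, chr10:75501563-75501663: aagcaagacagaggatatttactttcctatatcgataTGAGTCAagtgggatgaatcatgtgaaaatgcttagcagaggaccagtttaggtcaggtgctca
PDE6A, chr5:149318700-149318800: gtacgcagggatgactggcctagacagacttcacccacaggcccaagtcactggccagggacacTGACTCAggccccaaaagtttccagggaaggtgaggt
In the second set capitals mark AGGTCA, the half-site of nuclear receptors such as the retinoic acid and thyroid hormone receptors, again on either strand.
SEC24C, chr10:75501563-75501663: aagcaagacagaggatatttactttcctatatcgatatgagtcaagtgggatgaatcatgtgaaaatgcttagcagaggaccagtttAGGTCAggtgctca
TMEM26, chr10:63031385-63031485: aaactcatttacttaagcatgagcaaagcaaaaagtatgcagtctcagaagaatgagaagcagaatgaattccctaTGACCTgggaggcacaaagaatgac
Names are those of the gene with the nearest TSS. The window near SEC24C holds both sites.

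The first lost peak lay at place 1082, intergenic and 95280 bp upstream of ZMIZ1, which encodes a transcriptional co-regulator of the androgen receptor and SMAD proteins (chr10:80733357-80733529). It touched the edge of a WT H3(Lys4) region of 1285 bp with 11 bp, and the nearest K/D DAXX peak was 4238 bp away. The second, at place 1442, lay 2517 bp upstream of SEC24C, a COPII coat protein of vesicles leaving the endoplasmic reticulum (chr10:75501527-75501699). At place 1625 a lost peak lay in an intron of NRP1, the co-receptor of semaphorins and VEGF, 59774 bp from its TSS (chr10:33563450-33563622). These early places are rare among the lost peaks, only 88 of which fall in the first bin of the list, beside 1554 kept ones.

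The next peaks lay 1795 bp upstream of ANXA11, a calcium-dependent phospholipid-binding annexin (chr10:81967037-81967209), 181704 bp from TMEM26, and 15562 bp upstream of PPIF, the mitochondrial cyclophilin (chr10:81091577-81091749). The peak at ANXA11 held the only CTCF motif of the first 10 lost peaks and lay in a WT H3(Lys4) region of 6791 bp, with the nearest K/D region 124788 bp away. Further peaks lay in introns of PDE6A, a phosphodiesterase of photoreceptors, of PDE4DIP, a scaffold protein of the centrosome and Golgi, and of CAMK2G, a calcium/calmodulin-dependent kinase, and 3761 bp downstream of the TSS of IER2, an immediate early gene. None of these 10 peaks had a K/D H3(Lys4) region on it. At 5 of them a K/D region began within 100 bp: the gap was 5 bp near IER2, 20 bp near ZMIZ1, 50 bp in PDE6A, 72 bp near TMEM26 and 80 bp near SEC24C. Of the 10, 7 are on chromosome 10, which holds 4.50% of all lost peaks and 4.26% of the kept ones.

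The H3(Lys4) mark in K/D cells was the readout nearest to the rule that the rule did not use. A K/D H3(Lys4) region lay on 3090 of the 10916 lost peaks, or 28.3% (exact 95% binomial interval 27.5 to 29.2), against 3329 of the 9406 kept peaks, or 35.4% (34.4 to 36.4). Over all WT DAXX peaks the share was 24.8%. The odds ratio of lost over kept peaks was 0.721 (95% interval 0.679 to 0.765). K/D regions were thus less frequent on lost than on kept peaks, although all of both had a WT region. Distal peaks that had no WT H3(Lys4) region carried a K/D region in 15.9% (15.4 to 16.5) of lost and 24.55% (23.91 to 25.19) of kept ones. The lower share at lost peaks was thus not particular to peaks on H3(Lys4).

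For a K/D region on the peak itself, the lost peaks had the lower share in each of the 10 bins. The Mantel-Haenszel odds ratio over bins was 0.551 (0.514 to 0.590). In the first bin the shares were 10.2% (4.78 to 18.5) of 88 lost peaks and 27.6% (25.4 to 29.9) of 1554 kept ones. In the last bin they were 32.6% (30.4 to 34.8) of 1798 lost peaks and 39.6% (33.7 to 45.6) of 273 kept ones. For lost and for kept peaks alike, the share was lowest in the first bin and higher in the later ones.

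**Figure D1:**
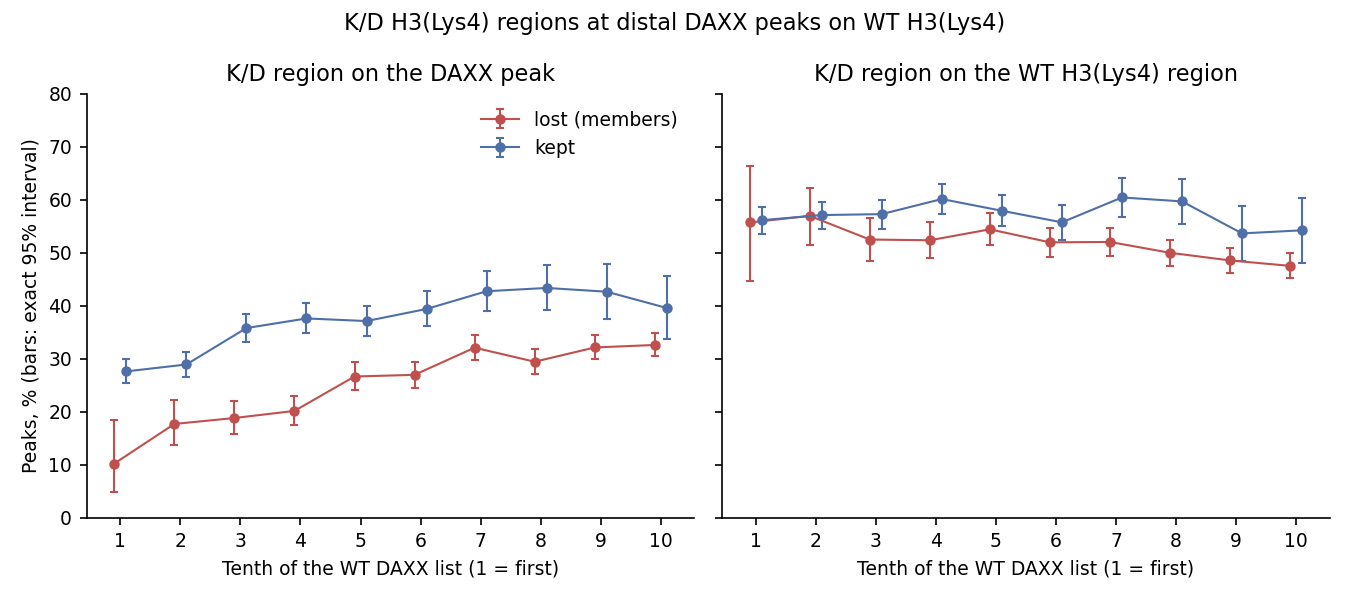
Share of distal DAXX peaks on WT H3(Lys4) (y axis, percent) with a K/D H3(Lys4) region on the peak (left) or anywhere on its WT H3(Lys4) region (right), by bin of the WT DAXX list (x axis), for lost peaks (red) and kept peaks (blue), with exact 95% binomial intervals. On the peak the lost share runs between 10.2% and 32.6% and lies under the kept share in each bin. On the WT region both are 55.7% and 56.1% in the first bin and separate later.

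Among the earliest peaks the K/D region often lay beside the lost peak. In the first bin a K/D region lay somewhere on the WT H3(Lys4) region of 55.7% (44.7 to 66.3) of lost peaks and of 56.1% (53.6 to 58.6) of kept peaks, although it covered the DAXX peak less often when that was lost. Counting K/D regions within 200 bp of the peak, the first bin had 40.9% for lost and 45.9% for kept peaks. Over all bins this wider count gave 42.2% (41.2 to 43.1) of lost and 49.1% (48.1 to 50.2) of kept peaks, with an odds ratio of 0.755 (0.714 to 0.798). Over the whole WT region the shares were 50.9% (49.9 to 51.8) and 57.5% (56.5 to 58.5) for lost and kept peaks, and the Mantel-Haenszel odds ratio over bins was 0.799 (0.750 to 0.853). The 200 bp limit was chosen after the gaps of the first peaks were seen.

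The lost peaks were also described by their gap to the nearest K/D DAXX peak, a value that the rule used. The median gap to the nearest K/D DAXX peak was 9934 bp. A K/D H3(Lys4) region lay on 40.4% (30.9 to 50.5) of the 104 lost peaks with a gap of up to 100 bp. It lay on 36.2% (32.4 to 40.2) of the 613 with gaps of 101 to 500 bp. The share was 26.4% (24.1 to 28.9) of the 1348 with gaps over 50 kb. The rule used the K/D DAXX peaks, so these bands are a description and nothing is read from them. They were not adjusted for region width or for place in the list.

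Seen from the marked regions, 10387 WT H3(Lys4) regions held at least 1 lost peak. Most of them, 9880, held exactly 1, while 485 held 2 and 22 held 3. A K/D region overlapped 49.8% (48.9 to 50.8) of these 10387 regions. Over all 72064 WT H3(Lys4) regions 54.2% had no K/D region, so 45.8% (45.4 to 46.2) did. Regions with lost peaks thus sat slightly above all WT regions, and they were also wider, with a median of 1075 bp against 756 bp.

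Whether a kept DAXX peak shared the region went with a larger difference. K/D regions overlapped 73.8% (70.9 to 76.6) of the 929 regions that held a lost and a kept peak, and 47.5% (46.5 to 48.5) of the 9458 that held lost peaks and no kept one. The mixed regions had a median width of 2669 bp and the others 985 bp. Their median place in the WT H3(Lys4) list was 5293, against 26415 for the others. A mixed region also holds more than a single DAXX peak by definition. Width, place and number of peaks thus move with this split. Regions with a single DAXX peak allow a comparison at similar widths, chosen after the values above were seen. Among these the share was 46.2% (45.1 to 47.2) of 8952 regions whose peak was lost and 52.9% (51.8 to 54.0) of 7565 whose distal peak was kept, with median widths of 944 and 981 bp. The odds ratio was 0.764 (0.718 to 0.812), and it was 0.768 (0.720 to 0.820) over 5 bins of region width and 0.797 (0.747 to 0.850) over bins of the H3(Lys4) list. Regions without any DAXX peak had a K/D region in 42.8% (42.4 to 43.2).

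**Figure D2:**
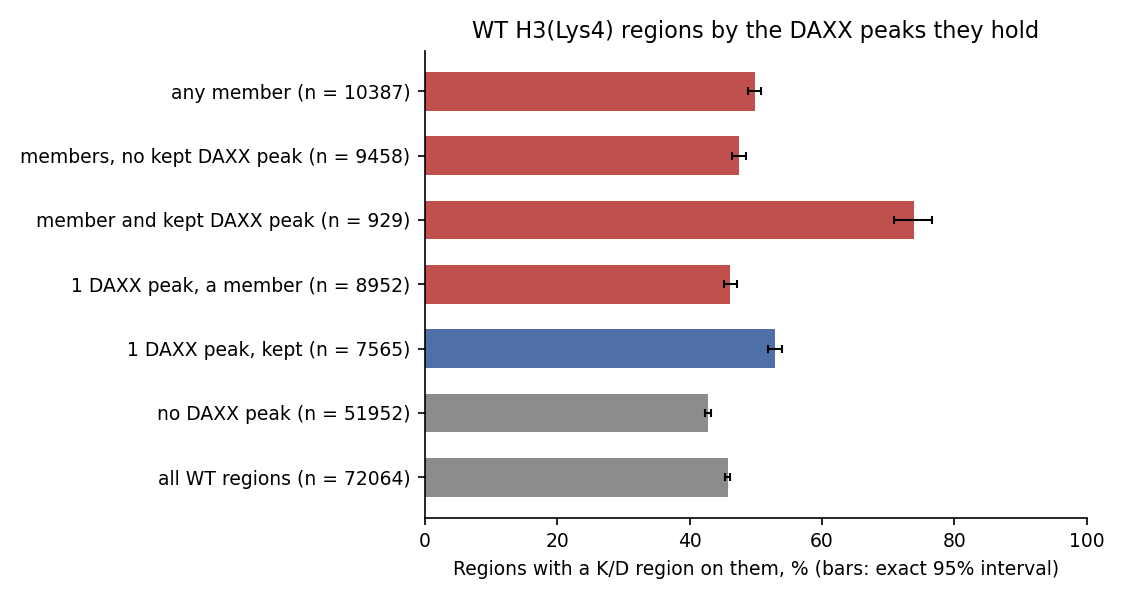
Share of WT H3(Lys4) regions with a K/D H3(Lys4) region on them (x axis, percent, with exact 95% binomial intervals) by the DAXX peaks they hold: regions with lost peaks in red, with a kept peak only in blue, without a DAXX peak and all regions in grey, with the number of regions beside each bar. Regions that hold 1 lost peak reach 46.2%, those with 1 kept peak 52.9%, and those with both kinds 73.8%.

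Where both lists had a region on the peak, the K/D region was mostly the narrower one. Its width was a median 0.798 of the WT width at lost peaks (n = 3090) and 0.834 at kept peaks (n = 3329), and it was narrower in 63.6% and 60.7% of them. Over the whole lists the median width was 644 bp in K/D and 756 bp in WT, and the K/D H3(Lys4) library held the smaller share of tags in peaks given above. The part of this library difference in the narrower regions was not tested.

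The 3 regions named here are the first in the WT H3(Lys4) list among the 22 with 3 lost peaks. The first, of 7031 bp, lay at CDC42EP4, an effector of the small GTPase CDC42 that shapes the actin cytoskeleton (chr17:71300189-71307219). It held 3 lost peaks at places 14926 to 22077 and no kept one, and in K/D cells it had neither a DAXX peak nor an H3(Lys4) region. The second, of 7566 bp, lay in CD44, the hyaluronan receptor of migrating and stem-like tumour cells (chr11:35183335-35190900). Its 3 lost peaks left no K/D DAXX peak, while 2 K/D H3(Lys4) regions covered 2246 bp of it. The third, of 7187 bp, lay in GLI3, a transcription factor of Hedgehog signalling (chr7:42271736-42278922), where 2 kept peaks stood beside 3 lost ones and 2 K/D regions covered 1002 bp. The mark was thus called nowhere on the WT region at CDC42EP4 and on parts of it at CD44 and GLI3.

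DNMT1 was rare at these sites in both cell lines. A WT DNMT1 peak lay on 235 of the 10916 lost peaks, or 2.15% (1.89 to 2.44), and on 256 of the 9406 kept peaks, or 2.72% (2.40 to 3.07), while 1.96% of all WT DAXX peaks had one. A K/D DNMT1 peak lay on 26 lost peaks, 0.238% (0.156 to 0.349), and on 39 kept peaks, 0.415% (0.295 to 0.566). The share was 0.3765% of all WT DAXX peaks and 0.233% of distal lost peaks off H3(Lys4), close to that of the lost peaks on it. The K/D DNMT1 list has 600 peaks and the WT list 2237, and K/D peaks held 0.0663% of tags against 0.263% in WT. Of the 235 lost peaks with WT DNMT1, 13 had a K/D DNMT1 peak. This count was not made for kept peaks or for all WT DAXX peaks, so it is not a trait of the lost ones.

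The direction of the DNMT1 comparison turned with place in the list. Without regard to place the odds ratio of lost over kept peaks was 0.786 (0.657 to 0.941). Within bins the lost peaks had the higher share in 8 of 10, and the Mantel-Haenszel odds ratio was 1.35 (1.09 to 1.66). In the fifth bin, for example, DNMT1 lay on 43 of 1081 lost peaks (3.98%) and on 18 of 1116 kept peaks (1.61%), and in the last bin on 13 of 1798 lost peaks (0.723%) and 3 of 273 kept peaks (1.10%). For K/D DNMT1 the odds ratio was 0.573 (0.349 to 0.943) without regard to place and 1.09 (0.613 to 1.92) over bins, where its interval included 1.

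Lost peaks with DNMT1 held an AP-1 site in 39.1% (92 of 235, 32.9 to 45.7), and those without it in 32.5% (31.6 to 33.4). The odds ratio was 1.34 (1.03 to 1.74), and over bins, added after this value was seen, it was 1.21 (0.928 to 1.58), an interval that includes 1. The nuclear receptor half-site stood in 10.2% (6.65 to 14.8) of those with DNMT1 and in 21.0% (20.2 to 21.8) of those without it, with an odds ratio over bins of 0.407 (0.266 to 0.623). For kept peaks neither site was compared by DNMT1, so whether this is particular to lost peaks was not tested. The first 3 lost peaks with DNMT1 by place lay 60071 bp upstream of FERMT2, a kindlin that activates integrins (chr14:53477753-53477925), 137740 bp downstream of the TSS of DKK1, a secreted Wnt inhibitor (chr10:54211695-54211867), and in an intron of MAP4K5, a kinase of stress signalling (chr14:50942300-50942472). Only the last of the 3 had a K/D H3(Lys4) region on it. The gap to the nearest K/D region was 11 bp for the peak near FERMT2 and 245 bp for that near DKK1. The peak near DKK1 lay in a WT region of 7023 bp, at place 4 of the WT H3(Lys4) list.

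Turning to sequence, AP-1 was the leading site of the lost peaks. TGACTCA stood within 100 bp of the centre in 32.6% (31.8 to 33.5) of lost peaks, against 3.22% of the windows 2 kb to either side of them, a 10.1-fold difference. The kept peaks had it in 41.3% (40.3 to 42.3), and all WT DAXX peaks in 36.2%. Off H3(Lys4), 34.9% (34.2 to 35.6) of distal lost and 42.7% (41.9 to 43.4) of distal kept peaks had it, so the lost share was lower there too. The odds ratio of lost over kept peaks on H3(Lys4) was 0.689 (0.651 to 0.730). Much of this went with place: within bins the Mantel-Haenszel odds ratio was 0.868 (0.812 to 0.928), with the lost share lower in 9 of 10 bins and 31.0% against 30.8% in the eighth.

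The half-site AGGTCA set lost and kept peaks further apart. It stood in 20.8% (20.01 to 21.5) of lost peaks, 1.54-fold its share of 13.5% in their flanking windows, and in 36.96% (36.0 to 37.9) of kept peaks, 2.66-fold their flanking share of 13.9%. All WT DAXX peaks had it in 30.9%. Off H3(Lys4), 26.5% (25.9 to 27.2) of distal lost and 39.5% (38.8 to 40.2) of distal kept peaks had it, so the lost share was lower there too. The odds ratio of lost over kept peaks on H3(Lys4) was 0.447 (0.420 to 0.476) and the Mantel-Haenszel odds ratio over bins 0.546 (0.508 to 0.587). The lost share was lower in each bin, with 25% (16.4 to 35.4) against 50.4% (47.9 to 52.9) in the first and 19.0% (17.2 to 20.9) against 30.0% (24.7 to 35.8) in the last.

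**Figure D3:**
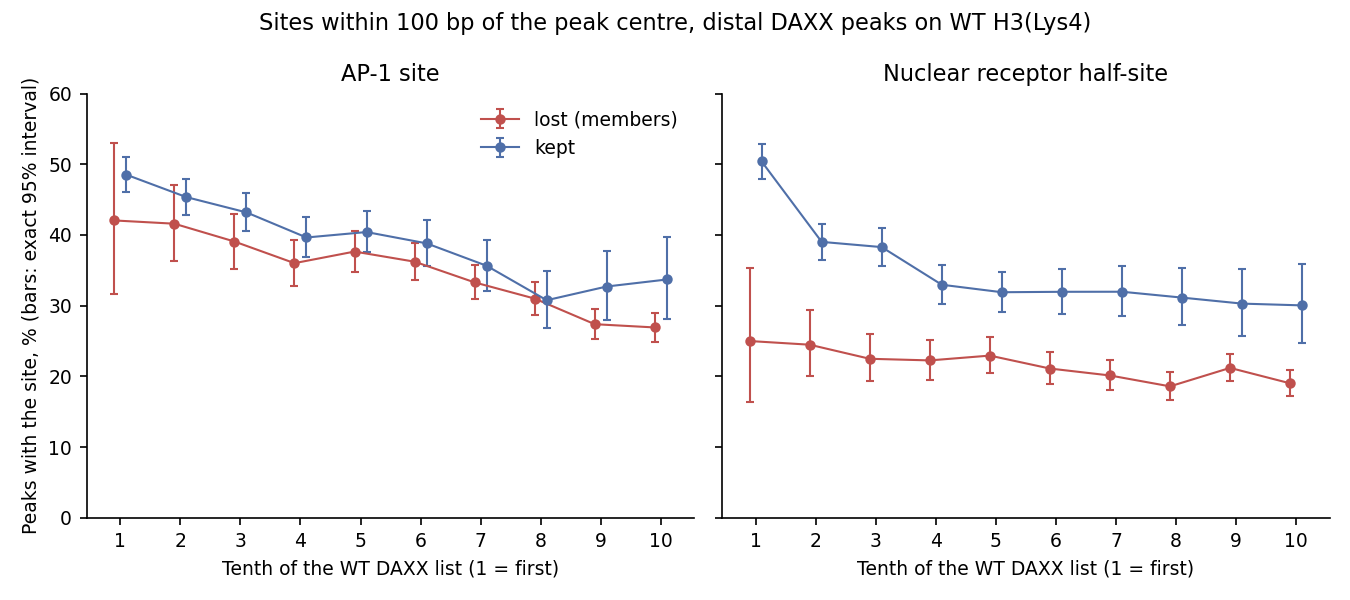
Share of distal DAXX peaks on WT H3(Lys4) (y axis, percent) with an AP-1 site (left) or a nuclear receptor half-site (right) within 100 bp of the centre, by bin of the WT DAXX list (x axis), for lost peaks (red) and kept peaks (blue), with exact 95% binomial intervals. The AP-1 shares fall side by side, with 42.0% of lost and 48.5% of kept peaks in the first bin, while the half-site shares stay apart in every bin.

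The half-site also differed in its position in the window. The nearest AP-1 site lay a median 26 bp from the centre of lost peaks and 25 bp from that of kept peaks, and 49.5% and 50.8% of the sites lay within 25 bp. The nearest half-site lay a median 32 bp from the centre of lost peaks and 25 bp from that of kept peaks, with 41.4% (39.3 to 43.4) and 50.03% (48.3 to 51.7) within 25 bp. Half-sites of lost peaks were thus both fewer and less centred. The same held for distal peaks off H3(Lys4), where the half-site lay a median 31 bp from the centre of lost and 25 bp from that of kept peaks, with 42.8% (41.4 to 44.2) and 51.2% (49.99 to 52.4) within 25 bp. On H3(Lys4) the share of half-sites was 1.54-fold the flanking share in lost and 2.66-fold in kept peaks. Whether the position differs apart from this difference in share was not tested. Both sites together stood in 5.25% of lost and 14.3% of kept peaks, and neither in 51.9% of lost and 36.1% of kept peaks. The 2 motifs can share at most 1 base with each other.

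Lost peaks with an AP-1 site had a K/D H3(Lys4) region less often than those without it. A K/D region lay on 24.8% (21.3 to 28.5) of lost peaks with both sites, on 26.3% (24.7 to 27.9) with AP-1 alone, on 29.6% (27.4 to 31.8) with the half-site alone and on 29.4% (28.2 to 30.6) with neither. The odds ratio with over without an AP-1 site was 0.844 (0.772 to 0.924), and 0.878 (0.802 to 0.962) over bins, while that with over without the half-site was 1.00 (0.906 to 1.11), and 1.02 (0.921 to 1.13) over bins. In each of the 4 site classes the kept peaks had the higher share. In the same order it was 33.2%, 34.7%, 36.15% and 36.3%, so the classes with AP-1 were lower there too, with overlapping intervals. The lower share with AP-1 was thus not particular to lost peaks. For distal lost peaks off H3(Lys4) the shares were 12.55%, 17.2%, 12.6% and 17.1%, lower with the half-site and not with AP-1 alone.

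The other 17 of the 19 motifs searched, all on both strands, had odds ratios of lost over kept peaks nearer to 1 than the half-site over all peaks, and also over bins except for NF-kB. The motif of CTCF, the insulator protein, stood in 1.39% (1.18 to 1.63) of lost and 1.04% (0.847 to 1.27) of kept peaks on H3(Lys4), in 2.52% of distal lost peaks off it and in 1.90% of all WT DAXX peaks. The odds ratio over kept was 1.34 (1.04 to 1.73), and 1.28 (0.954 to 1.73) over bins. TEAD, the partner of YAP, was searched as ACATTCC and stood in 5.06% of lost and 6.04% of kept peaks, and 4.93% of all WT DAXX peaks, with odds ratios of 0.829 (0.735 to 0.935) and, over bins, 0.899 (0.782 to 1.03). The NF-kB motif was rare, in 0.476% of lost, 0.361% of kept and 0.427% of all peaks, with an odds ratio of 1.32 (0.856 to 2.04) that was 1.93 (1.17 to 3.20) over bins.

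FOX (TGTTTAC) stood in 8.87% of lost, 8.31% of kept and 8.18% of all peaks, C/EBP (TTGCNNAA) in 14.6%, 13.6% and 14.1%, and SP1 (GGGCGGG) in 3.92%, 3.63% and 5.15% of the same 3 sets. Their odds ratios were 1.07 (0.972 to 1.18), 1.09 (1.01 to 1.18) and 1.09 (0.938 to 1.25) over all peaks, and 1.13 (1.00 to 1.26), 1.09 (0.993 to 1.19) and 0.989 (0.838 to 1.17) over bins. The homeobox core TAATTA was under its flanking share of 7.89%, with 4.03% of lost, 4.16% of kept and 3.77% of all peaks, and its odds ratio was 0.968 (0.843 to 1.11) over all peaks and 0.813 (0.693 to 0.954) over bins, farther from 1 than that of AP-1 over bins. RUNX (TGTGGTT) stood in 8.05% of lost peaks, 8.86% of kept peaks and 8.90% of all peaks, with odds ratios of 0.901 (0.816 to 0.995) and, over bins, 1.04 (0.929 to 1.17). GATA factors (AGATAA) had a match in 12.4% of lost peaks, 11.02% of kept peaks and 11.2% of all peaks, under the flanking share of 13.7% around the lost peaks, with an odds ratio of 1.15 (1.05 to 1.25) over all peaks. The remaining motifs were those of CRE-binding proteins (TGACGTCA), ETS factors in a form read as CCGGAAG and in another, searched apart from it, read as CAGGAAG, NFI, and the palindrome of the glucocorticoid and androgen receptors. To these come the E-box of MYC, read as CACGTG, the E-box of ZEB and SNAIL factors, for which the letters were CAGGTG, and the motif of GRHL factors, AACNNGTT. Each of these stood in between 0.0552% and 13.7% of all WT DAXX peaks. The odds ratios over bins of GATA, RUNX and these motifs lay between 0.778 and 1.29, each with an interval that included 1. A match is a description of the letters and not a bound site.

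**Figure D4:**
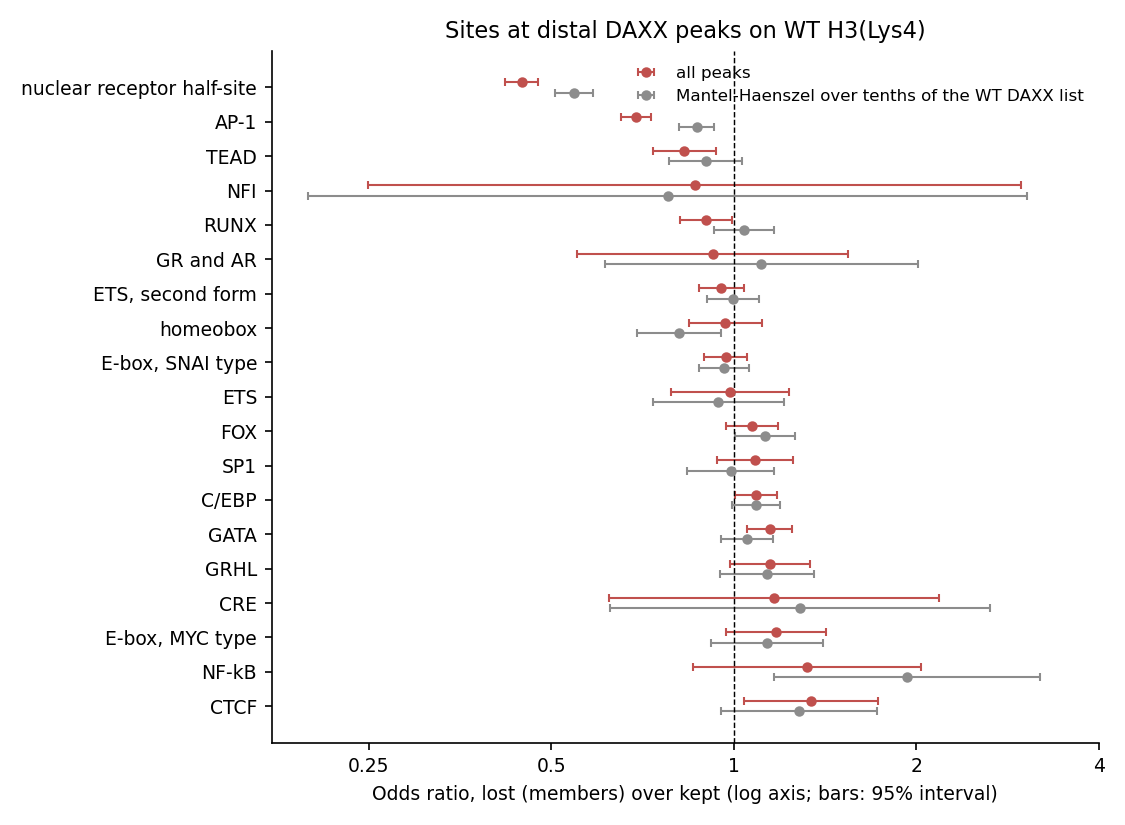
Odds ratio of each of 19 motifs within 100 bp of the centre, lost over kept distal DAXX peaks on WT H3(Lys4) (x axis, log scale), over all peaks (red) and combined over bins of the WT DAXX list (grey), with 95% intervals and a dashed line at 1. The nuclear receptor half-site, at 0.447 over all peaks and 0.546 over bins, and AP-1, at 0.689 and 0.868, stand beside the other 17, and the half-site lies lowest by both measures.

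In base composition the lost and kept peaks were close. The median GC content within 100 bp of the centre was 43.3% at lost and 44.3% at kept peaks, and 42.0% and 42.5% in windows 2 kb away. Early lost peaks were richer in GC, with a median of 47.8% in the first bin, against 44.8% for kept peaks there. CpG-rich windows, with over 50% GC and over 0.6 of the expected CpG, made up 4.93% (4.53 to 5.35) of lost and 3.26% (2.91 to 3.64) of kept peaks, with an odds ratio of 1.54 (1.33 to 1.77) that was 1.09 (0.934 to 1.28) over bins. Among all WT DAXX peaks, promoters included, the share was 6.93%, above that of the lost peaks. Off H3(Lys4) it was 2.35% of distal lost and 1.72% of distal kept peaks. The share was thus higher on the mark for lost and kept peaks alike. The odds ratio of lost peaks on over lost peaks off the mark was 2.16 (1.89 to 2.46).

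In the genome, 5546 lost peaks lay in introns of protein-coding genes, 4972 were intergenic and 398 lay in exons. These are 50.8%, 45.5% and 3.65% of the lost peaks, against 50.9%, 46.3% and 2.80% of the kept ones. Of all WT DAXX peaks, which include those at promoters, they are 45.1%, 45.2% and 2.70%. The odds ratio for exons was 1.30 (1.08 to 1.57) over bins. The median distance to the nearest TSS was 36576.5 bp for lost peaks, 35932.5 bp for kept peaks and 46036.5 bp for distal lost peaks off H3(Lys4). A TSS lay within 10 kb of 25.5% (24.6 to 26.3) of lost and 23.9% (23.04 to 24.8) of kept peaks, and of 18.0% (17.4 to 18.6) of distal lost peaks off H3(Lys4). Over all WT DAXX peaks, promoters included, the share was 25.75%, close to that of the lost peaks. The lost peaks thus lay at distances much like the kept ones on the mark, and both lay nearer to genes than peaks off it. By chromosome the lost share of distal peaks on H3(Lys4) ran from 49.5% on chromosome 19 to 57.3% on chromosome 13.

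Lost peaks were spread over many genes. They lay nearest to 5582 protein-coding genes, 3194 of which had exactly 1, and the 417 genes with 5 or more accounted for 2683 of them. ZEB2, a zinc finger repressor that promotes the epithelial-mesenchymal transition, had the most with 19, in 18 H3(Lys4) regions, at a median 539627 bp from its TSS, and 8 kept peaks on H3(Lys4) were nearest to it too. PIK3C3, the lipid kinase that starts autophagosome formation, followed with 16 lost and 5 kept peaks, at a median 493241 bp. ZNF608, a zinc finger protein, had 15 lost and 6 kept peaks at a median 299212 bp. Most of the peaks assigned to these 3 genes thus lay far from the TSS.

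The next were CNTNAP2, a neurexin-like adhesion molecule, GBE1, the glycogen branching enzyme, and IRS1, an adaptor of the insulin receptor, with 13 lost peaks each and 4, 5 and 5 kept ones. ADGRL3, a latrophilin receptor, ARHGAP24, ARHGEF28 and CADM2, a cell adhesion molecule, had 12 each. All 12 lost peaks of ARHGAP24 lay in introns, at a median 44159 bp from the TSS, next to 10 kept ones. A K/D H3(Lys4) region lay on 1 of these 12, and on 5 of the 19 at ZEB2, 4 of the 16 at PIK3C3 and 5 of the 12 at CADM2.

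Within 10 kb of a TSS, 2813 of 19785 protein-coding genes had a lost peak, or 14.2%, and 2244 had a kept one, or 11.3%. The count of genes with a lost peak was 820 for the first 50% of the WT DAXX list, 914 for peaks over 5000 bp from every TSS and 7659 for a distance of 50 kb. Of the 18 gene lists examined, integrins and focal adhesion, which tie the actin cytoskeleton to the matrix, had the highest share with 9 of 20 genes (45.0%, exact interval 23.1 to 68.5). They were ITGA3, PTK2, TNS3, ZYX, ITGB1, ACTN4, TLN1, ITGB5 and ITGAV, and 9 of the 20 genes (45.0%) had a kept peak that near. ITGA3, an integrin chain of laminin receptors, had its peak at place 7226 in an intron, 5347 bp from the TSS (chr17:48139065-48139237). PTK2, the focal adhesion kinase, had one at place 8203, in an intron 6105 bp from the TSS (chr8:141734852-141735024). Neither carried a K/D H3(Lys4) region, and both held a nuclear receptor half-site. ITGA3 also had 1 kept peak within 10 kb, and PTK2 had 2.

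Targets and partners of YAP and TEAD had a lost peak within 10 kb at 5 of 16 genes (31.2%), among them WWTR1, which encodes the YAP paralogue TAZ, and ANKRD1, and both of these peaks carried a K/D H3(Lys4) region. Of the AP-1 subunits, 3 of 10 had one (30%), namely ATF3, FOSL2 and FOSB. The peak of ATF3 lay in its intron at 1531 bp and that of FOSL2 lay 1058 bp from a TSS, and neither had a K/D region on it. WWTR1 and FOSL2 each also had 1 kept peak within 10 kb, and ANKRD1 and ATF3 had none. In the TGF-beta pathway 5 of 18 genes had a lost peak (27.8%). A kept peak lay within 10 kb at 4 of 16 YAP and TEAD genes (25%), 4 of 10 AP-1 subunits (40%) and 5 of 18 TGF-beta genes (27.8%). SMAD3, the receptor-activated mediator, had 4 lost and no kept peaks within 10 kb, the first lost one in an intron with an AP-1 site (chr15:67381590-67381762). SMURF2, a ubiquitin ligase for SMADs, had 1 lost and no kept peak.

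Core autophagy, the process that the study followed in these cells, had 8 of 38 genes with a lost peak (21.1%, 9.55 to 37.3), and 4 with a kept one (10.5%). They were ATG7, ATG16L1, ULK1, UVRAG, ATG4D, PIK3C3, GABARAPL1 and ATG2B. ATG7, the E1-like enzyme of LC3 conjugation, had its peak at place 12969 in an intron, 6595 bp from the TSS, with an AP-1 site and a gap of 10375 bp to the nearest K/D DAXX peak (chr3:11320611-11320783). ATG16L1, part of the conjugation complex that sets where LC3 is attached, had one 6482 bp from its TSS, also with an AP-1 site (chr2:234153649-234153821). Neither had a K/D H3(Lys4) region. ATG16L1 also had 1 kept peak within 10 kb, and ATG7 had none. The interval of the lost share includes the 14.2% of all genes, and the kept share is close to their 11.3%.

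Epithelial junctions had lost peaks at 4 of 16 genes (25%), keratins at 3 of 12 (25%), NF-kB and inflammatory cytokines at 5 of 20 (25%), and mesenchymal and invasion genes at 4 of 18 (22.2%). In the same order, kept peaks lay within 10 kb of 5 (31.2%), 3 (25%), 6 (30%) and 8 (44.4%) of their genes. DSP, the desmosomal plaque protein desmoplakin, had 2 lost and no kept peaks within 10 kb. TJP1, the tight junction scaffold, had 1 with a K/D H3(Lys4) region, KRT8, a keratin of simple epithelia, had 1 in its intron 1046 bp from the TSS, and KRT15 had 1. CCL20, a chemokine, had 1 lost and 1 kept peak, and BIRC3, an NF-kB target that blocks cell death, had 1 in an intron with an AP-1 site and a K/D region. ZEB2 had 3 lost and 4 kept peaks within 10 kb. KRT15 also had 1 kept peak that near, and TJP1, KRT8 and BIRC3 had none.

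The intervals of the remaining lists also included the share of all genes. EGFR ligands and feedback inhibitors had 3 of 16 (18.8%), with SPRED1 and ERRFI1 first, and both of these peaks carried a K/D region. The androgen receptor and luminal prostate list had 2 of 14 (14.3%), FKBP5 and STEAP2. Cytosolic ribosomal proteins had 3 of 24 (12.5%), with 3 lost peaks at RPL3 and 2 at RPS4X, lysosomal genes 2 of 24 (8.33%), CTSA and ATP6V1A, and the list of DAXX, ATRX, H3.3 and DNA methylation genes 1 of 18 (5.56%), the histone deacetylase gene HDAC1. In the order named, kept peaks lay within 10 kb of 4 (25%), 4 (28.6%), 4 (16.7%), 6 (25%) and 4 (22.2%) genes of these lists. ERRFI1 had 2 kept peaks that near, FKBP5 and CTSA 1 each, and SPRED1, STEAP2, RPL3, RPS4X, ATP6V1A and HDAC1 none. As markers of other cell types, blood cell genes had 0 of 14, which leaves room for a share of up to 23.2%, skeletal muscle genes 0 of 10 (up to 30.9%), neuronal genes 1 of 12 (NEFL) and liver genes 2 of 10 (20%, FGB and TF). A kept peak lay that near 1 neuronal gene (8.33%) and none of the blood cell, skeletal muscle or liver genes. The lists were chosen with earlier results of these data known. The interval of the lost share of each list but integrins and focal adhesion includes the lost share of all genes.

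**Figure D5:**
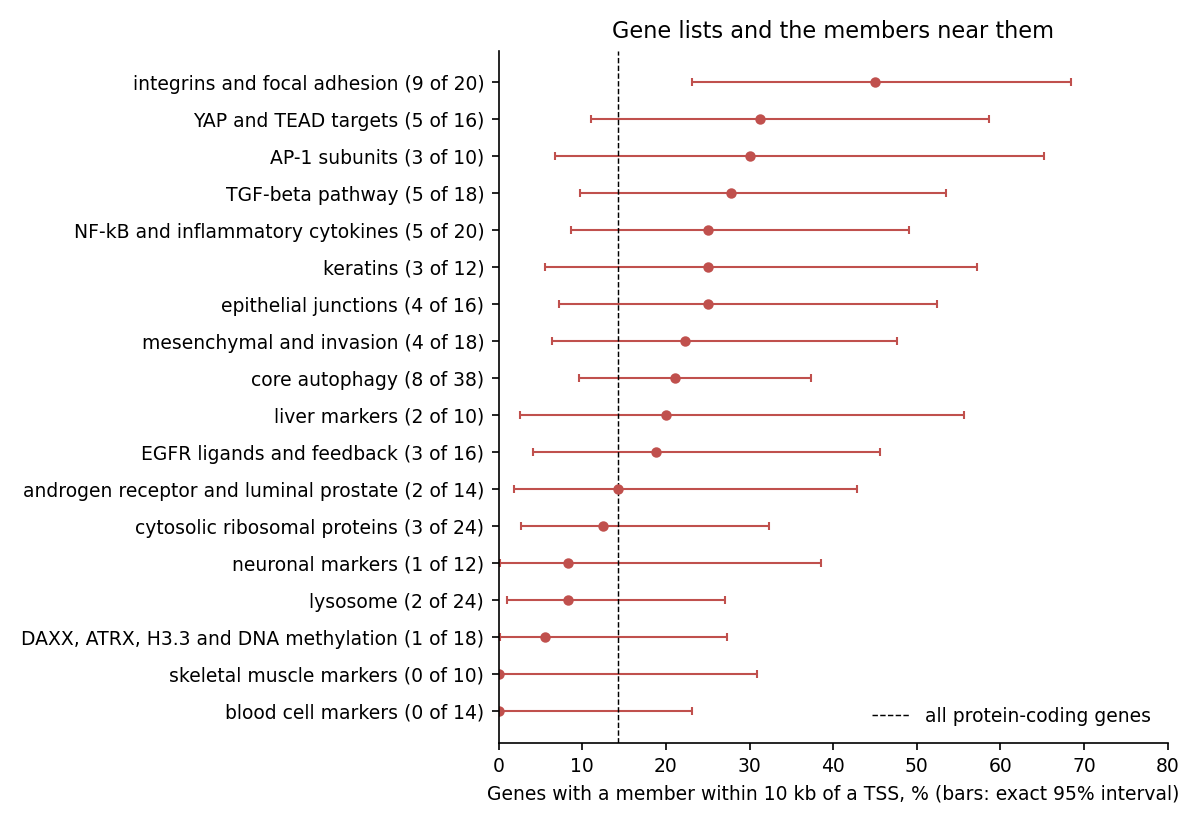
Share of the genes of 18 lists with a lost DAXX peak on H3(Lys4) within 10 kb of a TSS (x axis, percent), with exact 95% binomial intervals, the counts beside each list name, and the share of all 19785 protein-coding genes as a dashed line at 14.2%. Integrins and focal adhesion stand at 45.0%, and the intervals of the other lists include the dashed line.

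Values near the limits of the rule were as follows. Just inside the limit on loss, 29 members lay within 25 bp of a K/D DAXX peak, the first near TTI1 with a gap of 10 bp and SPIDR with a gap of 12 bp. Just outside it, 69 kept peaks overlapped a K/D peak by at most 25 bp, the first near CYP2A7 with 20 bp and NRP1 with 17 bp. For the mark, 494 members overlapped their WT H3(Lys4) region by at most 25 bp, among them the peaks near ZMIZ1 (11 bp) and LRRC17 (21 bp). On the other side 459 distal lost peaks missed one by at most 25 bp, the first near FZD8 (7 bp) and ZWINT (2 bp). Close to the promoter window lay 72 members within 100 bp of it, led by AHCY with a centre at -1029 bp from the TSS and ZSWIM1 with one at 111 bp, and 205 lost promoter peaks on H3(Lys4) lay within 100 bp of its inner side, led by PAPLN (-912 bp) and ITGB2 (26 bp).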

How the data were processed

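The 8 samples are 6 immunoprecipitations and 2 inputs, 1 of each kind in K/D and in WT cells. The group of each sample is that of its title. The submitters' processing notes name CASAVA 1.8.2, Bowtie2 2.1.0, HOMER 4.6 and the build hg19. Per the study's methods, Bowtie2 did the mapping, reads with a unique position were used, and HOMER found the peaks. The deposited lists give positions only. Per the file headers, each peak exceeded its matched input 4-fold at a Poisson p-value limit of 0.0001, the DAXX and DNMT1 lists met a false discovery rate of 0.001, and each tag directory is named for an old and a new part. Total tags were 18210051 for K/D DAXX, 15208845 for WT DAXX, 18705056 for K/D H3(Lys4), 16248943 for WT H3(Lys4), 12050101 for K/D DNMT1 and 14391288 for WT DNMT1. The score column, the same for all peaks, was not used, and the input libraries entered only through the authors' peak calls.

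Only peaks of the 22 autosomes, X and Y entered, and 113 on other contigs, over the 6 lists, were left out. The TSS (63781, of 19785 genes) came from GENCODE release 44 mapped to GRCh37, the build of hg19, and sequence from GRCh37. The WT DAXX list was divided by place into 10 bins of equal size. Overlap meant at least 1 shared bp. A peak was assigned to an exon, else an intron of a protein-coding gene, else intergenic. Order was checked against the peak numbers within chromosomes (median Spearman correlation 0.995 for WT DAXX and 0.589 for WT H3(Lys4)). Shares have exact (Clopper-Pearson) 95% intervals, odds ratios Woolf intervals, and Mantel-Haenszel odds ratios Robins-Breslow-Greenland intervals, computed with scipy 1.17.1 and pysam 0.24.0 and tested on simulated data. Peaks are not replicates, so no p-value is given.

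The members and the gene and motif lists were chosen with earlier results of these data known. Named are the first 10 members in deposited order, the 10 genes nearest to the most members, up to 2 genes of each list by the place of their member within 10 kb, the first 3 members with DNMT1, the 3 WT H3(Lys4) regions with the most members, and the first 2 peaks on each side of a limit. Further genes of a list are given by name only, as members of its count. A gene that this rule names is not reported here. Alternatives changed what counts as lost, as distal and as on H3(Lys4), the part of each list, the window, the distance and the chromosomes.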

Additional observations from a re-analysis of the deposited data

How the results depend on the processing

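Of 69 alternatives over 10 results, 51 stayed within the interval of the value reported or within 1.5 times the count, 16 moved past that without turning the direction, and 2 turned it. Both of these were for WT DNMT1, whose odds ratio of 0.786 became 1.17 in the first 50% of the WT DAXX list and 1.35 over 10 bins of that list. The first 50% of the list held 2993 members, and there the odds ratio was 0.564 for a K/D H3(Lys4) region and 0.787 for AP-1. Over bins the odds ratios were 0.551 for a K/D H3(Lys4) region, 0.868 for AP-1 and 0.546 for the nuclear receptor half-site. The half-site also gave 0.416 over 5000 bp from every TSS and 0.408 within 50 bp of the centre. Of 4 alternatives added after seeing the data, a K/D region within 200 bp and WT regions with a single DAXX peak, gave 0.755 and 0.764 for K/D H3(Lys4), and the other two, over bins, are those of AP-1 in lost peaks with DNMT1 and of K/D H3(Lys4) in lost peaks with AP-1. No paired analysis was possible because each group has 1 library and no test was made.

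With 1 library a group, the difference between K/D and WT cells cannot be told apart from that between 2 immunoprecipitations. The K/D DAXX library held fewer of its tags in peaks, and its part in the loss was not tested. The order of the H3(Lys4) lists follows the peak numbers less closely than that of the DAXX lists.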
